A study of Homo sapiens with 6 samples.

Results

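The genes described here encode 10 enzymes that make serine, asparagine, proline and glutamine and pass one-carbon units from serine into mitochondrial folate: PHGDH, PSAT1, PSPH, SHMT2, MTHFD2, ALDH1L2, ASNS, GLUL, PYCR1 and ALDH18A1. They were chosen by gene symbol, and each matched 1 of the 61806 genes in the deposited table. RNA sequencing compared 2 groups of 3 libraries whose cells carry the labels HepG2 (a hepatoma cell line) and CD133+. The first group is labelled as LAPTM4B knockdown, with titles that carry "shLAP", and the second as WT, with titles that carry "NC". LAPTM4B encodes a transmembrane protein found mainly on lysosomes. The labels do not name the knockdown reagent, its sequence, the number of clones, the culture medium or the time after knockdown, and they do not say that replicates are separate cultures. Each p-value below therefore reflects library-to-library spread, which may be technical.

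Serine is made from the glycolytic intermediate 3-phosphoglycerate in a short chain of reactions, and its side carbon then feeds the folate cycle in mitochondria. Asparagine, glutamine and proline are made from aspartate and glutamate. Many of these genes are known targets of ATF4, the transcription factor of the amino acid response. In liver, glutamine synthetase is known as a marker of the hepatocytes around the central vein, where it is under the control of Wnt and beta-catenin.

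Gene counts summed to 15204269 to 16303949 in the knockdown libraries and to 15667396 to 19987318 in the control libraries. Levels are given as CPM, gene counts per 1000000 counts of a library after TMM scaling, and changes are log2 of knockdown over control with the standard error (SE) from edgeR. LAPTM4B was at 227, 237 and 232 CPM in the knockdown libraries and at 327, 325 and 350.1 CPM in the control libraries, with a log2 change of -0.53 (SE 0.037), so the reduction of its mRNA was partial. The hepatocyte transcripts that define the labelled line were largely absent. ALB, APOA1 and APOB had 0 counts in all 6 libraries, where 3 counts, the limit that a count of 0 allows for counting error alone, correspond to 0.150 to 0.197 CPM of the total, and AFP had 0 to 4 counts. Of 14 hepatocyte markers, 7 had at most 3 counts in every library and CPS1, a urea cycle enzyme, was abundant at 664 to 696 CPM in knockdown and 757 to 796 CPM in control libraries. PROM1, which encodes CD133, had 6 to 12 counts per knockdown library and 1 to 3 per control library. Of the 5 tested hepatocyte markers 4 fell, against 27.9% of all genes tested, and the median log2 change over the 5 was -1.14. SERPINA1 had 0 to 5 counts per knockdown library and 35 to 49 per control library, and CYP3A4 had 5 to 9 and 13 to 24. Both passed the filter on low counts only through the control libraries, so for them only a fall could be tested. The count and the median are therefore partly set by the filter. The log2 change was -0.17 for CPS1, -1.14 for FGB, -1.248 for CYP3A4 and -3.65 for SERPINA1. Of the 3 tested bile duct markers KRT7 rose, to 251 ± 3.32 CPM in knockdown against 38.8 ± 0.601 CPM in control libraries. The other 2 fell, SOX9 to 13.0 ± 1.23 CPM in knockdown against 32.8 ± 0.456 CPM in control libraries, and EPCAM to 2.60 ± 0.230 CPM in knockdown against 6.32 ± 0.866 CPM in control libraries. The sum over all 5 bile duct markers, at 262 to 269 CPM in knockdown and 77.6 to 78.7 CPM in control libraries, was therefore set by KRT7, and KRT19 was at 0.60 CPM or less in every library. The 6 fibroblast markers summed to 16.6 to 19.8 CPM in knockdown and 10.2 to 12.9 CPM in control libraries. Most of that was COL1A1, at 11.7 ± 1.12 CPM in knockdown and 9.69 ± 1.75 CPM in control libraries (edgeR adjusted p = 0.0881). PDGFRB rose to 3.13 ± 0.272 CPM in knockdown against 0.275 ± 0.127 CPM in control libraries (edgeR adjusted p = 1.52e-08). FAP rose to 2.01 ± 0.333 CPM against 0.263 ± 0.224 CPM (edgeR adjusted p = 3.49e-06). Both passed the filter on low counts only through the knockdown libraries. The 4 endothelial markers summed to 0.510 to 1.03 CPM in knockdown and 1.14 to 3.11 CPM in control libraries. The 4 leukocyte markers summed to 0.905 to 1.02 CPM in knockdown and 3.43 to 3.73 CPM in control libraries, mostly LAPTM5, at 0.729 ± 0.101 CPM in knockdown and 2.80 ± 0.346 CPM in control libraries, with 0 to 3 counts of PTPRC and 0 to 1 of CD3E. Their part in the results below was not tested.

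All 10 members passed the filter on low counts. At an adjusted p under 0.05, 6 members were higher in the knockdown, 3 were lower and 1, PYCR1, did not pass. That threshold was passed by 55.9% of the 16354 genes tested, with 28.0% higher and 27.9% lower, so a passed test is common in these data. A change of at least 1.5-fold together with the same threshold was seen in 5 members upward and 1 downward, against 8.66% and 13.2% of all genes tested and 21.9% for both directions. The groups did not overlap for 8 of the 10 members, against 60.4% of genes tested. The median log2 change of the members was 0.48, and that of all genes tested was 0.0069. With limma on log2(FPKM + 0.1), which applies no composition factor, the split over all genes was 4496 higher and 2915 lower, against 4584 and 4559 with edgeR. Under each of these fits 6 members were higher and 3 lower as well. In bulk libraries, fewer cells that express a gene and less RNA per cell cannot be told apart.

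**Figure D1:**
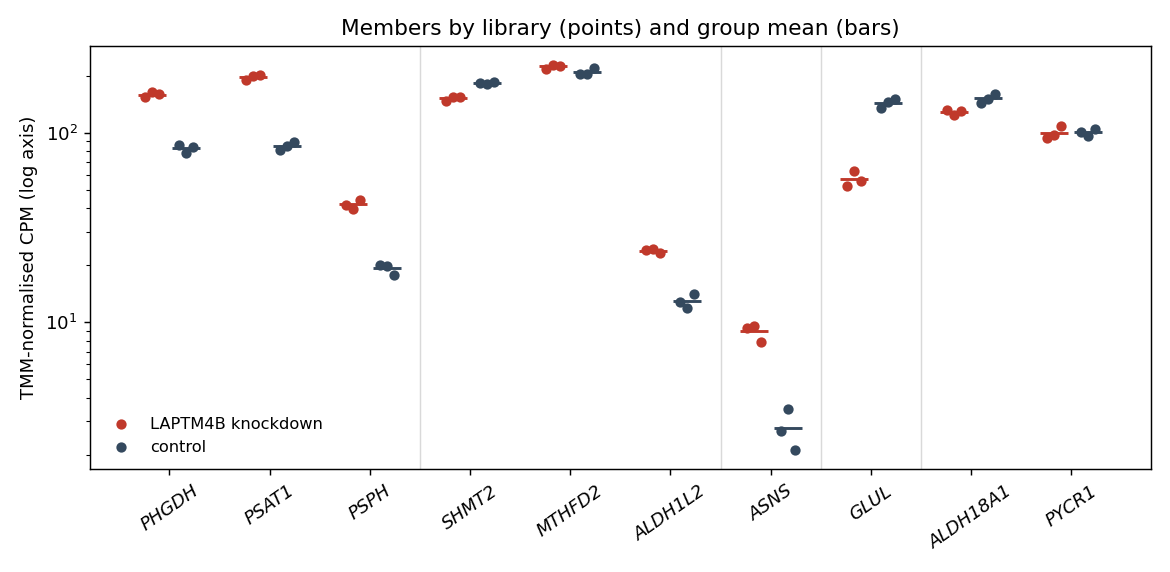
TMM-normalised CPM (log axis) of each member in the 3 LAPTM4B knockdown and 3 control libraries, with a bar at each group mean. The knockdown points lie above all control points for PHGDH, PSAT1, PSPH, ALDH1L2 and ASNS and below them for SHMT2, GLUL and ALDH18A1.

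The genes of all 3 enzymes that turn 3-phosphoglycerate into serine rose. PHGDH (chromosome 1, 119648411 to 119744218, hg38, plus strand) encodes the dehydrogenase that opens the route. It was at 154, 163 and 159 CPM in the knockdown libraries, against 86.4, 77.8 and 83.7 CPM in the control libraries. The groups lay far apart, and the log2 change was 0.94 (SE 0.045; edgeR adjusted p = 8.51e-16). PSAT1 (chromosome 9, 78297125 to 78330093, plus strand) encodes the aminotransferase that takes nitrogen from glutamate for the second step. It was at 189, 199 and 202 CPM in knockdown libraries and at 80.6, 85.2 and 89.8 CPM in control libraries. This was 2.31-fold (log2 change 1.21, SE 0.045; edgeR adjusted p = 2.62e-18). PSPH (chromosome 7, 56011051 to 56051604, minus strand) encodes the phosphatase that releases serine. It was at 41.6, 39.6 and 44.2 CPM in knockdown libraries and at 20.1, 19.9 and 17.7 CPM in control libraries. Its log2 change was 1.12 (SE 0.075; edgeR adjusted p = 9.66e-13).

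PSPH has a pseudogene copy, PSPHP1, on the same chromosome, so reads may be split between the pair. PSPHP1 had 102 to 121 counts per knockdown library and 124 to 158 per control library, which over all libraries was 24.6% of the counts given to PSPH. Its own level was 6.95 ± 0.759 CPM in knockdown and 7.76 ± 0.753 CPM in control libraries (SD, n = 3 each). With the counts of both summed, the level was 48.8 ± 1.73 CPM in knockdown and 27.0 ± 1.12 CPM in control libraries, a log2 ratio of means of 0.85. For PSAT1 the 4 pseudogenes in the table held 0 to 2 counts per library.

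The gene of the mitochondrial step that passes a one-carbon unit from serine to folate moved the other way. SHMT2 (chromosome 12, 57229573 to 57234935, plus strand) encodes the mitochondrial hydroxymethyltransferase that splits serine into glycine and a folate-bound one-carbon unit. It was at 148, 154 and 154 CPM in knockdown libraries and at 182, 179.7 and 186 CPM in control libraries. All knockdown values lay below all control values, and SHMT2 fell by 0.27 on the log2 scale (SE 0.038; edgeR adjusted p = 1.31e-06). NDUFA4L2 overlaps it on the opposite strand, with 16 to 29 counts in knockdown and 58 to 64 in control libraries, against 2318 counts or more for SHMT2 itself. The cytosolic form SHMT1 was at 56.3 ± 2.57 CPM in knockdown and 53.0 ± 2.75 CPM in control libraries (SD, n = 3 each; edgeR adjusted p = 0.214), and passed only when libraries were scaled by total counts (log2 change 0.15; adjusted p = 0.0307).

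Within each library, a ratio of 2 genes does not depend on how libraries are scaled. Such ratios were computed from counts per length, with 0.5 added to each count, for 6 pairs of a member and a partner gene, and compared by a two-sided exact permutation test over the 6 libraries. With 3 against 3 libraries this test cannot go below 0.1, so it cannot pass 0.05. The log2 ratio of SHMT2 to SHMT1 was 2.07, 2.06 and 1.996 in knockdown libraries and 2.34, 2.46 and 2.39 in control libraries. The mitochondrial form therefore exceeded the cytosolic form by less in every knockdown library, with a difference of -0.35 (exact permutation p = 0.1, adjusted p = 0.15 over 6 pairs).

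MTHFD2 and ALDH1L2 act after SHMT2 in mitochondrial folate metabolism. MTHFD2 (chromosome 2, 74186172 to 74217565, plus strand) encodes the dehydrogenase and cyclohydrolase that carries the one-carbon unit toward formate. It was the member with the highest mean CPM in both groups, at 218, 227 and 226 CPM in knockdown libraries and 205, 205 and 219 CPM in control libraries. The groups overlapped, through control replicate 3, and the log2 change was 0.093 (SE 0.038; edgeR adjusted p = 0.0415). That call was lost without control replicate 1 (adjusted p = 0.271) or 2 (0.213), without knockdown replicate 2 (0.145) or 3 (0.117), with DESeq2 (0.136), with median-of-ratios factors (0.0768) and without a count filter (0.0752). It was also just over the threshold with the replicate number as a block (0.0502). The log2 ratio of MTHFD2 to MTHFD1, the cytosolic enzyme that runs the corresponding steps, averaged 0.59 ± 0.023 in knockdown and 0.59 ± 0.030 in control libraries (SD, n = 3 each; exact permutation p = 1.0). To MTHFD2L, its mitochondrial paralog, the ratio averaged 3.93 ± 0.17 in knockdown and 3.75 ± 0.15 in control libraries (exact permutation p = 0.3), and those groups overlapped.

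ALDH1L2 (chromosome 12, 105019784 to 105107643, minus strand) encodes the mitochondrial dehydrogenase that oxidises formyl-folate to carbon dioxide with production of NADPH. It was at 24.0, 24.3 and 23.2 CPM in knockdown libraries and at 12.8, 11.9 and 14.1 CPM in control libraries. The lowest knockdown value was well above the highest control value, and the change was 1.84-fold (log2 change 0.88, SE 0.092; edgeR adjusted p = 6.29e-09). WASHC4 overlaps ALDH1L2 on the opposite strand at a higher level, 134 ± 1.86 CPM in knockdown and 107 ± 2.54 CPM in control libraries (SD, n = 3 each), with a log2 change of 0.33. NOPCHAP1 also overlaps it and was at 13.8 ± 1.07 CPM in knockdown and 9.65 ± 0.981 CPM in control libraries. Use of strand in counting is not stated, so where these genes overlap ALDH1L2 their reads cannot be told apart. ALDH1L1, the cytosolic counterpart, had 0 to 2 counts in any library and was not tested.

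**Figure D2:**
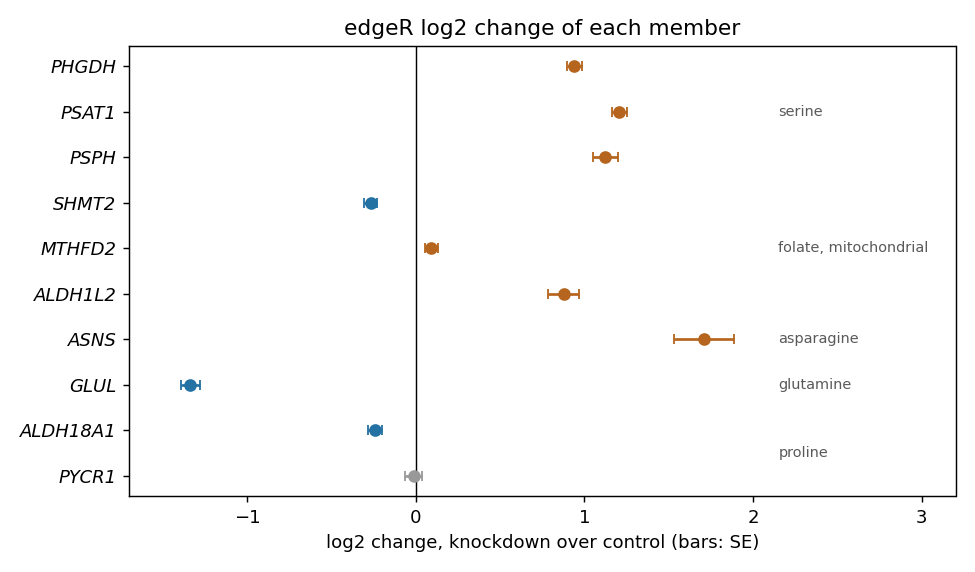
edgeR log2 change of each member, LAPTM4B knockdown over control, with bars of 1 SE and the members in the order of their routes. The 3 serine steps lie between 0.94 and 1.21 while SHMT2, MTHFD2, ALDH18A1 and PYCR1 lie between -0.27 and 0.093. ALDH1L2, also of mitochondrial folate metabolism, lies at 0.88, ASNS at 1.71 and GLUL at -1.34.

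ASNS had the largest relative rise among the members and the fewest counts. It encodes asparagine synthetase, which moves the amide nitrogen of glutamine onto aspartate, and is a textbook target of the amino acid response (chromosome 7, 97851677 to 97872542, minus strand). Its counts were 147, 148 and 132 in knockdown libraries and 48, 54 and 41 in control libraries. That is 9.37, 9.57 and 7.90 CPM in the knockdown, against 2.67, 3.50 and 2.12 CPM in control libraries. The groups were far apart, and the change was 3.27-fold (log2 change 1.71, SE 0.18; edgeR adjusted p = 6.63e-09). With 1 added to FPKM before the log, the same comparison gave a log2 change of 0.89, since the level is low against that pseudocount. An unnamed gene that overlaps ASNS on the same strand had 4 to 12 counts per knockdown library and 3 to 4 per control library. The log2 ratio of ASNS to ASRGL1, an asparaginase that breaks asparagine down, was -0.17, -0.47 and -0.63 in knockdown libraries and -1.72, -1.32 and -2.17 in control libraries. The difference was 1.32, which is 2.49-fold (exact permutation p = 0.1, adjusted p = 0.15 over 6 pairs).

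Promoter windows are shown for the members whose window holds one of 2 searched motifs, ASNS and ALDH18A1, and for PSAT1 and GLUL, the most raised and the most lowered of the other members that have a window. The motifs were TGATGNAA, the core of the amino acid response element that ATF4 binds with a C/EBP partner, and CACGTG, the E-box of MYC and related factors. Both strands were searched from 250 bases before to 50 bases after each start site in RefSeq (GRCh38.p14). Of the members, 6 have a window there, and SHMT2, PSPH, ALDH1L2 and PYCR1 were not searched. Each sequence runs 5′ to 3′ on the strand of its gene over 110 bases, and capitals mark a motif.
ASNS, chr7:97872409-97872518, minus strand, positions -110 to -1 from the start site: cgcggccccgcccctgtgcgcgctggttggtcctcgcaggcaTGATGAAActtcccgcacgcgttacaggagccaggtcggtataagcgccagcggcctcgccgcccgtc
PSAT1, chr9:78297015-78297124, plus strand, positions -110 to -1: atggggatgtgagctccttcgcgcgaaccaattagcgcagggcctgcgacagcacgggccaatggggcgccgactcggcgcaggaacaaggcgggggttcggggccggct
GLUL, chr1:182391791-182391900, minus strand, upstream start site, positions -110 to -1: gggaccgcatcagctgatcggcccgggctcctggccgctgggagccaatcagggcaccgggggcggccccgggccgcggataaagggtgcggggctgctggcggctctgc
ALDH18A1, chr10:95656752-95656861, minus strand, positions -150 to -41: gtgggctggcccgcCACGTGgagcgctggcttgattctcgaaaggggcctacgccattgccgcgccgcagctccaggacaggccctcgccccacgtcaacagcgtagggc

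TGATGNAA was found in the window of the upstream ASNS start site, as TGATGAAA at positions -68 to -61 on the strand of the gene, and in 3.62% of all 35116 windows. It was in 1 of the 8 windows of the 6 members, ASNS and GLUL having 2 start sites each. CACGTG was found in the ALDH18A1 window, at positions -136 to -131, and in 7.26% of all windows. PHGDH, PSAT1, MTHFD2 and GLUL held neither in these windows. A match describes letters only, and these data contain no measure of binding.

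GLUL was the one member that fell by 1.5-fold or more. It encodes glutamine synthetase, which joins ammonia to glutamate (chromosome 1, 182378098 to 182392206, minus strand). It was at 52.1, 63.1 and 55.6 CPM in knockdown libraries and at 136, 145 and 150.4 CPM in control libraries. The highest knockdown value was less than the lowest control value by a wide margin, and the log2 change was -1.34 (SE 0.056; edgeR adjusted p = 4.46e-17). The 14 hepatocyte markers, whose part in the fall of GLUL was not tested, summed to 674 to 707 CPM in knockdown and 777 to 816 CPM in control libraries. CPS1 made up most of that sum, at 664 to 696 CPM in knockdown and 757 to 796 CPM in control libraries. Of the 5 tested hepatocyte markers 4 were lower, against 27.9% of all genes tested. That count is partly set by the filter, which SERPINA1 and CYP3A4 passed only through the control libraries.

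Of 12 genes known as beta-catenin targets in liver or elsewhere, 7 could be tested. Of the 7, 28.6% were called, against 55.9% of all genes tested. TBX3, a transcription factor gene, rose by a log2 change of 0.61, and NOTUM, a secreted Wnt inhibitor, fell by 1.54 on the log2 scale. The other 5, named after their values were seen, did not pass and were AXIN2, RNF43, ZNRF3, SP5 and CYP2E1. All of these but ZNRF3 had only 10 to 30 counts per library, with an SE of 0.35 to 0.39. For them only a large change could have passed, so their results do not show that they were unchanged. The median log2 change of the 7 genes was 0.092, the value of SP5, against 0.0069 for all genes tested. CYP1A2, RHBG and SLC1A2, known with GLUL from hepatocytes around the central vein, were below the filter.

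In the proline route ALDH18A1 was slightly lower and PYCR1 did not pass. ALDH18A1 (chromosome 10, 95605941 to 95656711, minus strand) encodes the synthase that turns glutamate into pyrroline-5-carboxylate. It was at 132, 124 and 129.9 CPM in knockdown libraries and at 144, 151 and 161 CPM in control libraries. The groups did not overlap, and ALDH18A1 fell by 0.24 on the log2 scale (SE 0.044; edgeR adjusted p = 4.00e-05). PYCR1 (chromosome 17, 81932384 to 81942412, minus strand) encodes the mitochondrial reductase that completes proline. It was at 93.7, 96.9 and 108 CPM in knockdown libraries and at 101, 95.9 and 104 CPM in control libraries. The groups overlapped, and the log2 change of -0.012 had a 95% interval of -0.11 to 0.09 by the normal approximation (edgeR adjusted p = 0.860). The change was 0.0498 with libraries scaled by total counts and 0.0474 with limma on log2(FPKM + 0.1).

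PYCR3, the cytosolic form of the reductase, did not pass either, at 11.04 ± 1.46 CPM in knockdown and 9.60 ± 0.263 CPM in control libraries (SD, n = 3 each; edgeR adjusted p = 0.166). The log2 ratio of PYCR1 to PYCR3 averaged 3.63 ± 0.20 in knockdown and 3.83 ± 0.058 in control libraries (exact permutation p = 0.1, adjusted p = 0.15). ALDH4A1, which oxidises pyrroline-5-carboxylate back to glutamate, rose to 5.07 ± 0.200 CPM in knockdown libraries against 2.84 ± 0.338 CPM in control libraries (log2 change 0.83; edgeR adjusted p = 5.01e-04). The log2 ratio of ALDH18A1 to ALDH4A1 was accordingly lower in every knockdown library, at 4.71, 4.52 and 4.58, against 5.42, 5.73 and 5.89 in control libraries (exact permutation p = 0.1, adjusted p = 0.15). PRODH and PRODH2, the proline dehydrogenases, had at most 5 counts in any library.

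**Figure D3:**
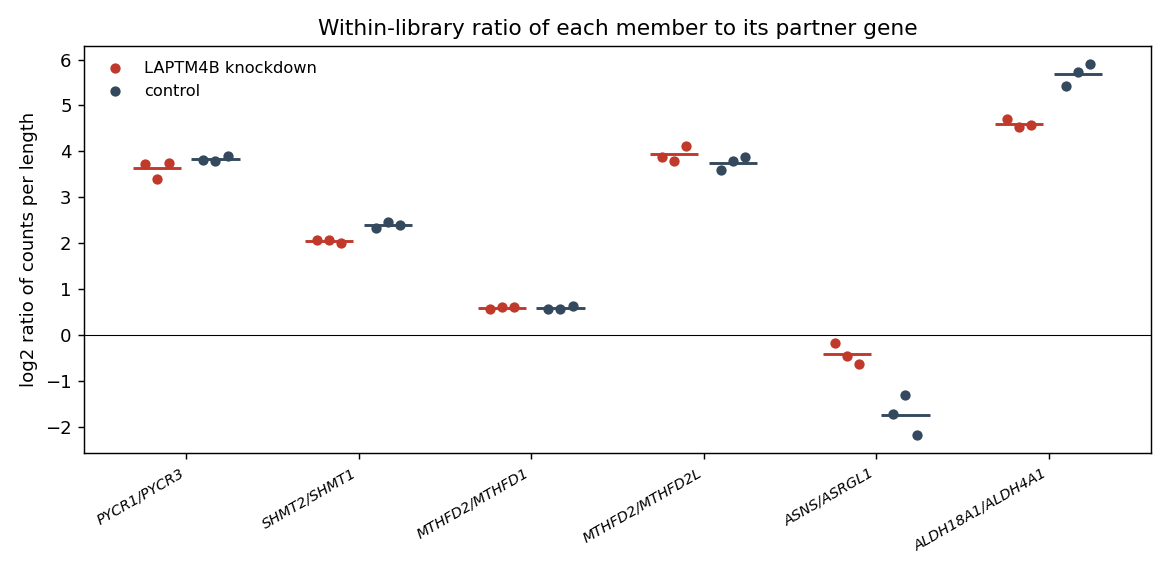
Log2 ratio, within each library, of a member's counts per length to those of its partner gene, for the 3 LAPTM4B knockdown and 3 control libraries, with a bar at each group mean. ALDH18A1 over ALDH4A1 averages 4.61 in the knockdown and 5.68 in control libraries, while MTHFD2 over MTHFD1 averages 0.59 in both.

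Levels of different members can be compared only per length, for which the deposited FPKM divides by the exonic length of each gene. On that scale the order in the knockdown was PSAT1 at 90.8 ± 3.55 FPKM, then PYCR1 at 35.2 ± 2.89, ALDH18A1 at 34.9 ± 1.21, SHMT2 at 33.7 ± 0.879, MTHFD2 at 19.9 ± 0.497, PHGDH at 17.6 ± 0.521, PSPH at 15.4 ± 0.912, GLUL at 4.59 ± 0.451, ALDH1L2 at 2.56 ± 0.0451 and ASNS at 1.86 ± 0.184 FPKM (SD, n = 3). PYCR1, ALDH18A1 and SHMT2 overlapped in neighbouring pairs, and the other neighbours did not. In control cells the order was ALDH18A1 at 39.5 ± 1.90 FPKM, SHMT2 at 38.8 ± 0.329, PSAT1 at 37.7 ± 1.84, PYCR1 at 34.0 ± 1.14, MTHFD2 at 17.9 ± 0.541, GLUL at 11.1 ± 0.550, PHGDH at 8.79 ± 0.431, PSPH at 6.81 ± 0.520, ALDH1L2 at 1.33 ± 0.105 and ASNS at 0.550 ± 0.141 FPKM. Only ALDH18A1, SHMT2 and PSAT1 overlapped in neighbouring pairs there. PSAT1 was thus at place 1 in the knockdown and place 3 in control cells, while GLUL was at place 8 in the knockdown and place 6 in control cells.

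The order depends on the length used. The deposited exonic length joins all annotated exons of a gene and was 9187 bases for PHGDH, 11443 for MTHFD2 and 12638 for GLUL, whereas the principal transcript in GENCODE release 29 has 2585, 4456 and 4719 bases. With principal transcript lengths, an alternative chosen after seeing the data, PHGDH was at 62.6 ± 1.85 FPKM in knockdown and 31.2 ± 1.53 FPKM in control libraries, and stood at place 2 in the knockdown instead of place 6, overlapping SHMT2 at place 3 (61.0 ± 1.59 FPKM). PSAT1 remained first in the knockdown at 91.6 ± 3.58 FPKM, and SHMT2 was first in control cells at 70.3 ± 0.595 FPKM. In control cells PSAT1 was then at place 5 instead of 3. GLUL was at place 7 there instead of 6, overlapping PHGDH at place 6, and stayed at place 8 in the knockdown. ALDH1L2 and ASNS were the lowest members under both lengths in both groups. The length does not enter any comparison of a gene between groups.

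**Figure D4:**
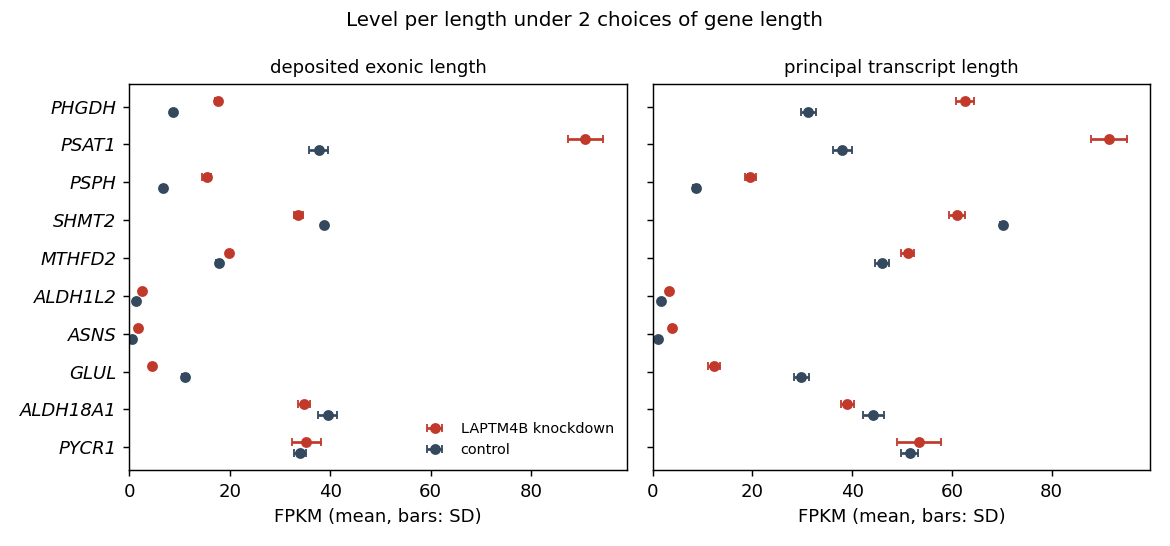
FPKM of each member, mean with bars of 1 SD over 3 libraries, in LAPTM4B knockdown and control cells, using the deposited exonic length (left) and the principal transcript length (right). PSAT1 in the knockdown is the highest point on both panels, and PHGDH in the knockdown is at 17.6 FPKM on the left and 62.6 FPKM on the right.

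Beyond the members, 56 other genes of the same pathways were listed, of which 45 could be tested. Of these 17 rose and 11 fell, while 17 did not pass. Their median log2 change was 0.084. That is 62.2% called, against 55.9% of all genes tested. Among those that passed, 7 rose and 3 fell by 1.5-fold or more, which is 22.2%, against 21.9% of all genes tested. Both shares are near those of all genes, so they are not a result about these genes. In the serine and glycine list 5 of 11 tested genes rose, 2 fell and 4 did not pass. That is 63.6% called, and 45.5% at 1.5-fold or more, against 55.9% and 21.9% of all genes tested. DLD, the dehydrogenase shared by the glycine cleavage system and other mitochondrial complexes, rose to 158 ± 2.05 CPM in knockdown against 116 ± 5.83 CPM in control libraries, and CTH, the last enzyme of cysteine synthesis from serine and homocysteine, to 17.6 ± 2.40 CPM in knockdown against 9.08 ± 1.33 CPM in control libraries. CBS, the enzyme before CTH, SDSL and GNMT also rose, with log2 changes of 0.77, 1.74 and 1.65. SDSL and GNMT were under 1 CPM on average in control cells and passed the filter only through the knockdown libraries. CBS did not pass without knockdown replicate 3 (edgeR adjusted p = 0.0818) or with limma on log2(FPKM + 0.1) without a filter (0.202), and these 3 genes were named after their values were seen. The list's genes that fell were GCAT, a glycine-forming ligase of threonine breakdown, and GLYCTK, glycerate kinase, by 0.68 and 0.52 on the log2 scale, although GLYCTK did not pass with DESeq2 (adjusted p = 0.0555) or with limma on FPKM.

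In the folate list 2 of 10 tested genes rose, 2 fell and 6 did not pass, at a median log2 change of -0.017. MTHFS, which returns formyl-folate to the active pool, rose to 9.18 ± 1.38 CPM in knockdown against 5.56 ± 0.883 CPM in control libraries. MTHFD1 had a log2 change of 0.091 and missed the threshold with DESeq2 (adjusted p = 0.1001). MTR, methionine synthase, fell to 82.8 ± 3.99 CPM in knockdown against 123 ± 5.52 CPM in control libraries. The other that fell was MTHFD1L, a mitochondrial formate-releasing enzyme, with a log2 change of -0.12. The call of MTHFD1L was lost with DESeq2 (adjusted p = 0.121), total counts (0.309), no count filter (0.0872), the replicate block (0.0518) and limma (0.235 to 0.365), and without knockdown replicate 2 or 3 or control replicate 2 or 3. That of MTHFD1 was also lost with median-of-ratios factors (0.0655), no count filter (0.0818) and without any 1 library other than control replicate 3.

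For asparagine and aspartate, 4 of 6 tested genes rose, none fell and 2 did not pass. That is 66.7% called, against 55.9% of all genes tested. At 1.5-fold or more it was 0%, against 21.9%. SLC25A13, a mitochondrial aspartate and glutamate carrier, and GOT1, the cytosolic aspartate aminotransferase, had log2 changes of 0.54 and 0.53. ASRGL1 rose by 0.40 but missed the threshold with DESeq2 (adjusted p = 0.0520) and without knockdown replicate 2 (0.0574), and GOT2, named after its values were seen, changed by 0.14. In the proline and ornithine list 2 of 6 tested genes rose, 2 fell and 2 did not pass. Beside ALDH4A1, PEPD, a dipeptidase that releases proline from peptides, rose by a log2 change of 0.66. ARG2, the mitochondrial arginase, fell to 1.07 ± 0.346 CPM in knockdown against 6.08 ± 0.713 CPM in control libraries, and NADK2, the mitochondrial NAD kinase whose product proline synthesis uses, fell by 0.26 on the log2 scale.

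Of 12 tested genes that make or use glutamine and glutamate, 4 were higher and 5 lower, while 3 did not pass (median log2 change -0.11). All genes tested were split as well, with 28.0% higher and 27.9% lower. In this list 75.0% were called, against 55.9% of all genes tested. At 1.5-fold or more it was 8.33%, against 21.9%. GFPT1, which uses glutamine to open the hexosamine pathway, rose to 235 ± 5.52 CPM in knockdown against 172 ± 1.27 CPM in control libraries. Its paralog GFPT2 fell to 74.7 ± 2.95 CPM in knockdown against 138 ± 1.99 CPM in control libraries, a log2 change of -0.88. GLUD1, glutamate dehydrogenase, fell to 159.8 ± 1.26 CPM in knockdown against 217 ± 5.82 CPM in control libraries. CTPS1, a CTP synthase that takes nitrogen from glutamine, had a log2 change of 0.16. The other genes that passed, named after their values were seen, were GPT2 (log2 change 0.25) and NIT2 (0.16), which rose, and CAD (-0.12), CTPS2 (-0.17) and GMPS (-0.22), which fell. Of these, GPT2 was lost with DESeq2 (adjusted p = 0.143), the replicate block (0.0547) and limma (0.0537 to 0.120), and without knockdown replicate 1 or 2 or control replicate 1. NIT2 was lost with DESeq2 (0.0762) and without control replicate 2. CTPS2 was lost with DESeq2 (0.122), total counts (0.159), no count filter (0.0745) and limma (0.0713 to 0.120), and without knockdown replicate 2 or 3 or control replicate 3. CAD was lost with total counts (0.166) and limma (0.148 to 0.232).

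**Figure D5:**
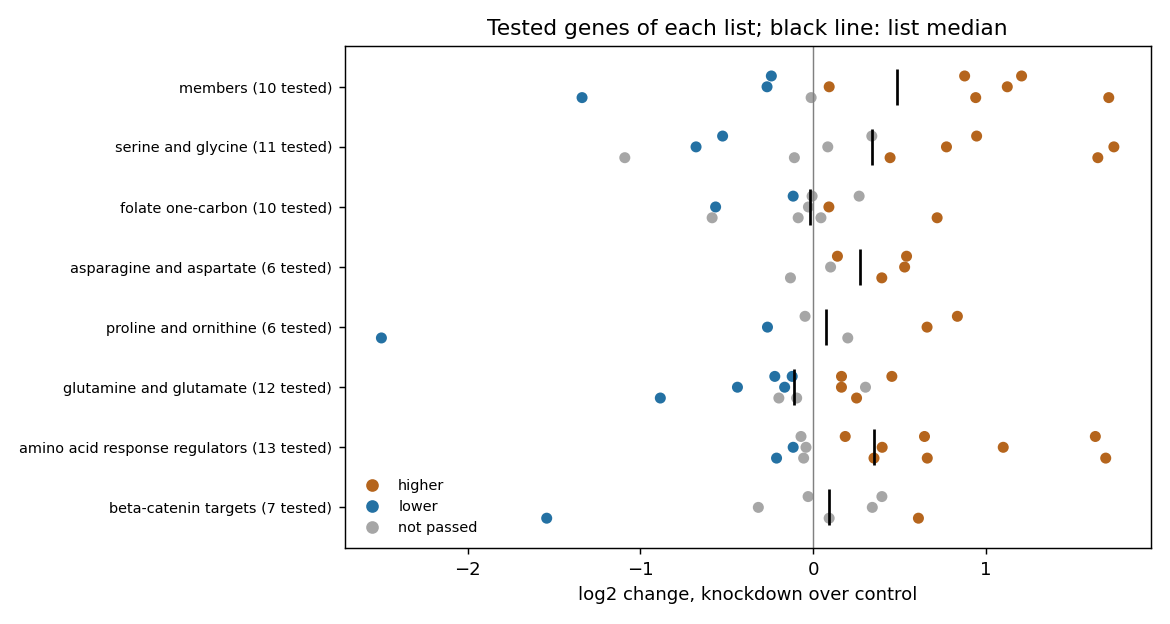
edgeR log2 change, LAPTM4B knockdown over control, of each tested gene in the members, the 5 lists of other pathway genes and 2 lists of regulators or targets, coloured by whether it passed at an adjusted p under 0.05. The median, a black line, is 0.48 for the members and 0.34 for the serine and glycine list, and lies between -0.11 and 0.35 for the other lists.

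Among 13 regulators and markers of the amino acid response, 8 rose, 2 fell and 3 did not pass, at a median log2 change of 0.35. That is 76.9% called, against 55.9% of all genes tested. At 1.5-fold or more it was 38.5%, against 21.9% of all genes tested. ATF4 was at 248, 248 and 244 CPM in knockdown libraries and at 159, 151 and 163 CPM in control libraries. The groups lay apart, by 0.64 on the log2 scale (SE 0.038; edgeR adjusted p = 7.26e-14). SESN2, a stress-induced inhibitor of mTORC1, was at 35.4 ± 2.85 CPM in knockdown and 11.4 ± 0.918 CPM in control libraries. DDIT3, a transcription factor gene of the same response, was at 27.05 ± 1.37 CPM in knockdown and 12.7 ± 2.24 CPM in control libraries, named after its values were seen. The kinases EIF2AK1 and EIF2AK3 were lower by 0.12 and 0.21 on the log2 scale, and neither passed with libraries scaled by total counts (adjusted p = 0.169 and 0.0642) or with limma (0.166 to 0.284 and 0.308 to 0.399). EIF2AK3 did not pass with DESeq2 (0.0607). EIF2AK1 was also lost without knockdown replicate 3 (0.0961). The 3 that did not pass, named after their values were seen, were EIF2AK4, TRIB3 and ATF3.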

How the data were processed

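Whole-number gene counts and FPKM values per library were deposited in 1 table together with a summed exon length per gene, per the file headers. The authors' FPKM scales each count by that length and by the library's total count, which held for 100% of values within 0.0051. The submitters' processing notes name hg38, and the RNA came from Trizol extraction and an Illumina TruSeq kit, per the labels' protocols. For the aligner, counter, annotation release and strandedness, the answer is "not given in the sources used here". All 10 members matched the deposited symbols.

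The count test was the two-sided quasi-likelihood test of edgeR 4.0.16 (R 4.3.3) after filterByExpr and TMM scaling. Its p-values were adjusted by Benjamini-Hochberg over 16354 genes, with a threshold of 0.05. SE is the size of the log2 change divided by the square root of F. The filter removed 18147 genes with counts, and 99.8% of counts remained. The test was checked on simulated data. Within each group, no replicate pair was alike within sampling noise (chi-square per gene 1.89 to 4.38). No batch is named. Alternatives used DESeq2 1.42.0, limma 3.58.1 and other settings given in the closing section. Plots used Python 3.11.15 and matplotlib 3.10.9.

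The members, pathway lists, motifs and naming rule were chosen with earlier results of these data known. Some genes of these lists and their ratios are not reported here. Named genes were the members, LAPTM4B, ATF4, the partner genes of the ratios, the 2 smallest p-values per direction among genes called in each list, and PROM1, ALB and AFP; apart from markers and genes that overlap or copy a member, any other gene is marked in the text as named after seeing its values.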

Additional observations from a re-analysis of the deposited data

How the results depend on the processing

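Among the members, PHGDH, PSAT1, PSPH, ALDH1L2 and ASNS stayed higher and SHMT2, GLUL and ALDH18A1 lower, past the threshold, in all 15 alternative fits; the members called were 5 or 6 higher and 3 lower, MTHFD2 being the one that varied. The log2 change of PYCR1 changed sign with total-count scaling (0.0498) and with limma on FPKM at pseudocounts of 0.1 (0.0474, with and without a minimum level), 1 (0.0463) and 0.01 (0.0475), and ranged from -0.0734 to 0.0336 when 1 library was left out. Leaving out 1 library also moved MTHFD2L between -0.17 and 0.0024; neither passed in any fit, and the cause was not tested. Over all genes, limma on FPKM with a minimum mean of 1 FPKM gave 2915, 2925 and 2900 lower calls with pseudocounts of 0.1, 1 and 0.01, against 4559; that minimum also tests fewer genes. In the other pathway genes, each of the 4 limma fits called 7 lower, against 11. Of 712 results for 48 genes under alternatives, 627 kept direction and side, 75 lost the call, 1 gained it and 9 changed sign. All ratio differences stayed within 1 SD of their value under the alternatives run, and the sign changed for MTHFD2 over MTHFD1 (-0.0082 to 0.0195), whose groups overlap.

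The replicate numbers showed no evident pairing of the libraries: deviations from the group means of same-numbered libraries correlated at 0.0272, -0.0523 and -0.0544 across genes. Counting noise in genes with few counts can weaken such correlations, so they cannot show that the libraries were unpaired. With the replicate number as a block, 4441 genes were higher and 4408 lower, and of the members 5 were higher and 3 lower, MTHFD2 (log2 change 0.093) being the call that changed. The other named genes whose call the block changed were MTHFD1L (-0.12) and GPT2 (0.25). Differences of ratios taken within replicate numbers have the same means, and the block's sign-flip test cannot go below 0.25. ALDH1L1, PRODH, PRODH2, CYP1A2, RHBG and SLC1A2 had 0 to 6 counts per library and were not tested, so no difference was detectable at this depth.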
